A study of Mus musculus with 20 samples.

Results

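Adipocyte lipid storage and synthesis genes were followed across all 20 libraries of the study. They are 40 genes that were chosen by name, as the rows of the expression table whose symbol equals a listed gene. All 40 were found among the 54304 genes of the table, and all 40 passed the filter on low values, with a level above 0 in each of the 20 libraries. By role they comprise 4 adipokines and secreted factors, 8 genes of the lipid droplet coat and structure, 6 of fatty acid uptake and carriage, 2 transporters of glucose and glycerol, 6 enzymes of triglyceride assembly, 9 genes of de novo lipogenesis, 4 of lipolysis, and carbonic anhydrase 3.

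RNA was sequenced from stromal cells of gonadal white fat, sorted into 2 populations that both carry PDGFRβ and lack the blood cell marker CD45 and the endothelial marker CD31. Fibro-inflammatory progenitors (FIPs) carry LY6C, and adipogenic precursor cells (APCs) carry neither LY6C nor CD9. Both populations of control and of Mural-Zfp423 transgenic mice gave 4 groups of 5 libraries. A library pooled the RNA of 2 mice, with 10 mice per genotype, so FIP pools and APC pools from one genotype share mice, in a pattern that the labels do not give. All groups, controls included, came from male mice given as 8 weeks old, kept at 30 °C, and fed for 1 month on a diet with 60% of its energy from fat. The transgene is named for expression of Zfp423 in mural cells, the cells around small vessels. Its promoter, any inducing agent and the exact genotype of the controls were not given in the sources used here.

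A white adipocyte stores energy as triglyceride in a single large lipid droplet. Fatty acids reach it from lipoproteins cleaved by lipoprotein lipase, or are made from glucose, and are joined to glycerol at the endoplasmic reticulum, coated by perilipins on the droplet and released again by lipases. Precursor cells acquire this programme as they differentiate under PPARγ and C/EBPα, and mature fat cells, being buoyant and fragile, are a familiar source of RNA in stromal preparations from fat.

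Library depth, estimated from the step between low values, was between 6600000 and 8500000 reads. The gate transcripts Ly6c1, Ly6c2 and Cd9 were higher in FIPs, by 1.71, 2.25 and 1.54 log2 units in controls. Zfp423 differed between libraries labelled transgenic and control by 0.06 log2 units in FIPs (limma adjusted p = 0.933) and by −0.26 in APCs (adjusted p = 0.108), so it does not check the genotype labels, and these libraries are called labelled transgenic throughout. Whether transgene reads count toward the annotated Zfp423 was not given in the sources used here.

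Values below are log2 CPM, a gene's reads scaled to a common library total, as deposited, and are listed in the order of replicates 1 to 5. A difference is a difference of group means in log2 units with its standard error (SE), tested with limma over 17435 genes, and a gene passed at a Benjamini-Hochberg adjusted p under 0.05. The p-values measure the spread between pools of mice.

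Compared per kilobase of annotated exon, the member levels in control APCs spanned a wide range. Scd1, a desaturase that makes oleate, was the highest at 7.78 log2 CPM per kilobase, followed by Cfd, the serum protease adipsin, at 7.67 and Fasn, the fatty acid synthase, at 7.14. Car3 at 7.08 and Adipoq at 6.86 came next. Plin5, a perilipin best known from oxidative tissues, was the lowest at 1.78 log2 CPM per kilobase, below Mlxipl at 3.57. In control FIPs the per kilobase level of Scd1 was 7.53, that of Cfd 7.47 and that of Plin5 0.68.

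The genes lie on 16 mouse chromosomes, and 3 sets lie close together in the GENCODE M21 annotation of GRCm38. Plin4 at chr17:56100591-56109803 and Plin5 at chr17:56111601-56117596 lie on the minus strand, with Plin3 further on at chr17:56277476-56292873. Scd2 at chr19:44293674-44306864 and Scd1 at chr19:44394455-44407879 lie on opposite strands and are transcribed toward each other. Fabp5 at chr3:10012548-10016607 and Fabp4 at chr3:10204088-10208576 form a pair of fatty acid binding protein genes. Exons of 10 members overlap exons of genes on the opposite strand, the longest stretches being 1039 bases in Acsl1 and 918 bases in Lipe, and the library kit named in the labels does not mark strand, so reads from these stretches cannot be told apart.

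Promoter windows of RefSeq (GRCm38.p6, 250 bases before to 50 after a start) were matched for 28 of the 40 members. The windows of 4 members that show different patterns below are printed 5′ to 3′ on the gene's strand, with the motif matches named beside each in capitals. In the window of Adipoq at chr16:23146286-23146585 (plus strand) the capitals mark 3 matches of the CCAAT box on either strand (CCAAT or ATTGG), the nearest 7 bases before the start:
Adipoq: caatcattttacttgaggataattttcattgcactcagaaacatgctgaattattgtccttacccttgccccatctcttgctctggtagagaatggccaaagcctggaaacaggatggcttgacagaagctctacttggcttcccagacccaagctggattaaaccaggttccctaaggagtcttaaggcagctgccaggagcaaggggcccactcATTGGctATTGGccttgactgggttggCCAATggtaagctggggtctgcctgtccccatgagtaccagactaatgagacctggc
The window of Lep at chr6:29059971-29060270 (plus strand) holds TTGCGCAA, the palindrome that C/EBP factors recognise, 55 bases before the start:
Lep: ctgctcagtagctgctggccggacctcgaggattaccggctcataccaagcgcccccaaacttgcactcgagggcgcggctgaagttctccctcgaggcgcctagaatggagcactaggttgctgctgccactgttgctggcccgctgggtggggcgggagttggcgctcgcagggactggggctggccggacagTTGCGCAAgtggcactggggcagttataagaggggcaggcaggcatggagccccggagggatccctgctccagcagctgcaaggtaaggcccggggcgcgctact
In the window of Mlxipl at chr5:135089640-135089939 (plus strand) capitals mark the E-box CACGTG, 98 bases before the start, and an ATTGG:
Mlxipl: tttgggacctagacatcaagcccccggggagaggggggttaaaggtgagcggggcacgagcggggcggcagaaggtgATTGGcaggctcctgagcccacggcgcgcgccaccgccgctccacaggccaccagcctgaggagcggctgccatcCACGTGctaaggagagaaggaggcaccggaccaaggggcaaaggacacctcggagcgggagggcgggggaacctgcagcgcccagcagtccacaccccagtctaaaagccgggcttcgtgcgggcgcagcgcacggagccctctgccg
The window of Plin2 at chr4:86670010-86670309 (minus strand) holds CACGTG 4 bases before the start:
Plin2: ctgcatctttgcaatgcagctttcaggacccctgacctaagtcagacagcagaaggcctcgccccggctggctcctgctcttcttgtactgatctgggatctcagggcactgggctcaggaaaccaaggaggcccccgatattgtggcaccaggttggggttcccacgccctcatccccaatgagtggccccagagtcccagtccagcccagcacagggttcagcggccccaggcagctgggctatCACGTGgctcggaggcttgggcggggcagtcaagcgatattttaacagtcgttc

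Searched on both strands, CACGTG occurred in the windows of 4 of the 28 members (Plin2, Mlxipl, Lipe and Mgll; 14.3%, against 8.09% of all genes with a window). TTGCGCAA was found in 1 member, Lep, and in 0.207% of genes. CCAAT was present in 15 of 28 members and 41.1% of genes, GGGCGG in 16 members and 38.2% of genes, and TATAAA in 0 members and 15.7% of genes. TCACNCCAC, part of the sterol regulatory element, matched Acsl1 and Mlxipl and 1.44% of genes, and a pair of AGGTCA with 1 base between matched 0 members and 0.0481% of genes. These matches describe letters in short windows and overlap where CCAAT boxes adjoin.

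In control mice, 36 of the 40 members were lower in FIPs than in APCs and 0 were higher, while 27.9% of all tested genes passed as lower and 19.6% as higher. The median difference of the members was −0.62 log2 units, against −0.06 for all tested genes. It ranged from −1.11 for Plin5 to 0.17 for Scd2. In 34 members all 5 FIP libraries lay below all 5 APC libraries, as they did for 16.7% of tested genes. The 4 members that did not pass were Plin3, Scd2, Acly and Mgll. Over all genes, 41.3% of the calls were higher in FIPs, and 52.8% were after each library was centred on its median.

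In APCs, 25 members were lower in libraries labelled transgenic than in controls and 0 were higher, while 5.91% of all tested genes passed as lower and 2.1% as higher. Differences were below 0 for 39 of 40 members (Plin2 and Lpl moved above 0 with centring), with a median of −0.50 log2 units against −0.03 over all tested genes. Mlxipl differed most, by −0.96, and Plin3 was the one member above 0, at 0.07. Only for Scd2 did the 5 libraries labelled transgenic lie below all 5 controls, as 1.42% of tested genes did. Of all calls, 26.2% were higher in libraries labelled transgenic, and 62.6% after median centring. Centring left 24 members lower and 0 higher, against 4.72% and 7.89% of all tested genes.

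These calls in APCs lay close to the threshold. Fitted on the 10 APC libraries alone, 0 of 17435 genes passed, with 3602 genes and 35 members at an unadjusted p under 0.05. The count of members lower was 34 and 32 without control APC replicate 1 or 2, against 10.5% and 7.9% of all tested genes. Without replicate 1, 1 member was higher, as 3.65% of tested genes were. The count of members lower fell to 3, 4 and 1 without control APC replicate 3, 4 or 5, against 1.42%, 2.22% and 0.671% of tested genes. It was 1, 3, 2 and 1 without replicate 2, 3, 4 or 5 of the APCs labelled transgenic, against 0.9%, 2.16%, 1.8% and 0.642%. Where the count fell, the member medians were −0.41 to −0.49 log2 units. Replicate 1 of the APCs labelled transgenic was the highest of its group for 37 of the 40 members. Without it, 35 members were lower, with a member median of −0.62, against 12.3% of all tested genes. A library that stands out in the members themselves was left out there, so that count has no independent support.

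**Figure D1:**
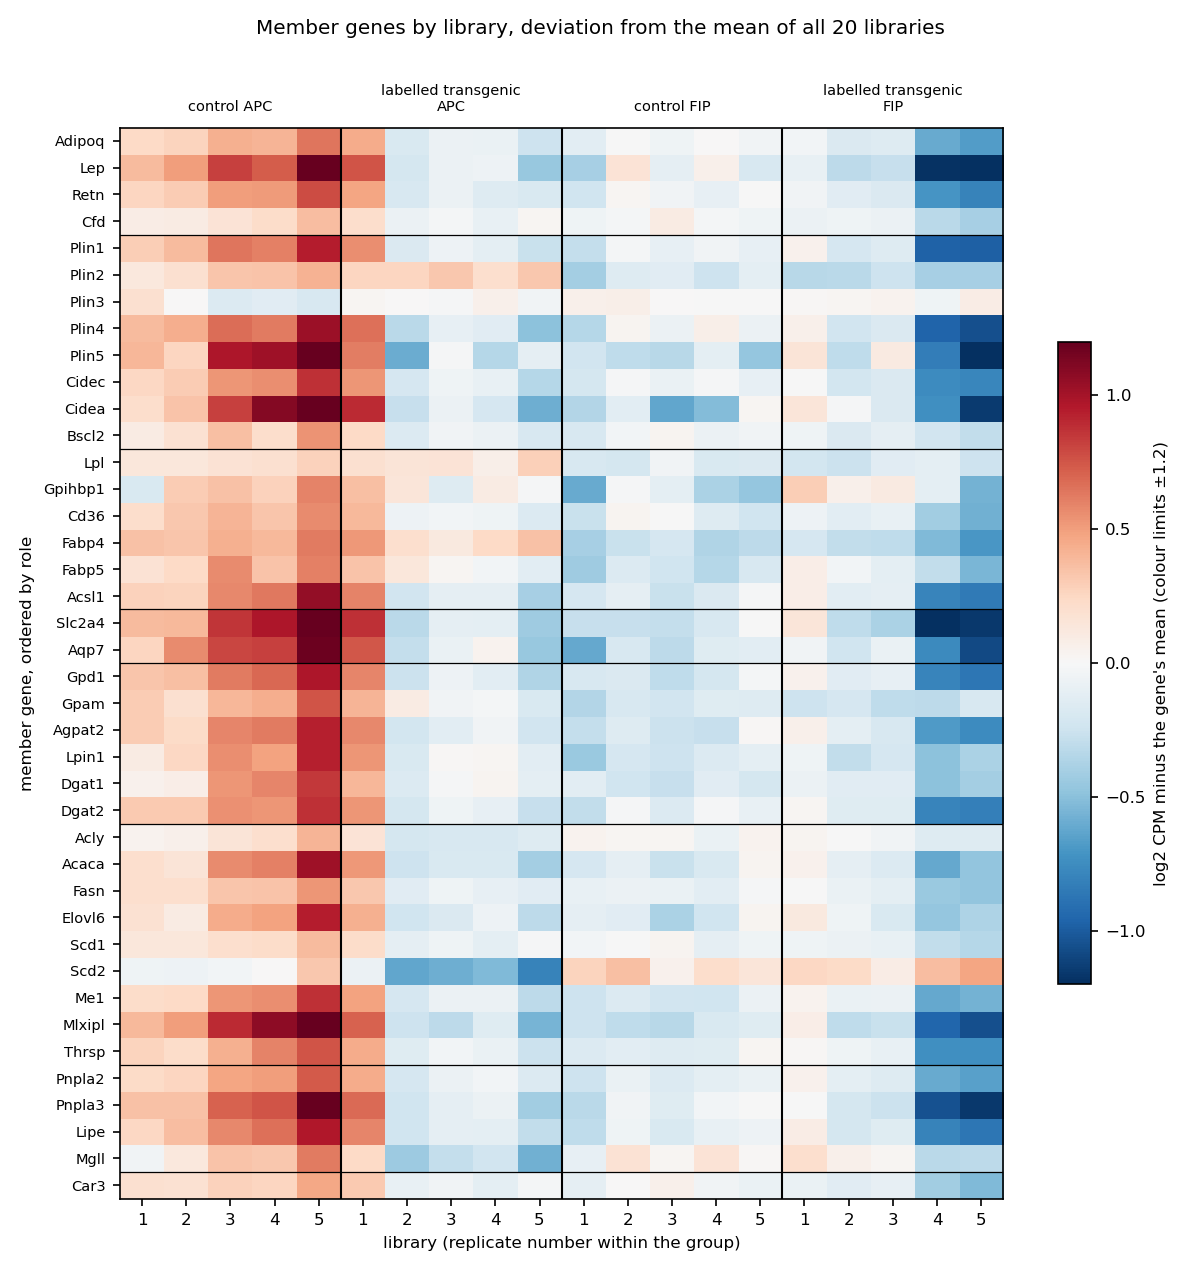
Level of each of the 40 members (rows, grouped by role) in each of the 20 libraries (columns, replicates 1 to 5 within each group), as the log2 CPM minus the gene's mean over all libraries. Replicate 1 of the APCs labelled transgenic resembles the control APCs in colour, replicates 4 and 5 of the FIPs labelled transgenic are the lowest columns for most members, and Plin2, Plin3, Lpl and Scd2 break the pattern.

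Single libraries stood apart for most members at once. Replicate 1 was the highest of the 5 APC libraries labelled transgenic for 37 of 40 members, the exceptions being Plin2, Plin3 and Lpl, and for 31.4% of tested genes. Replicates 4 and 5 were the lowest of the FIPs labelled transgenic for 36 members, the exceptions being Plin3, Lpl, Gpam and Scd2, and for 17.2% of tested genes. Among control APCs, replicate 5 was the highest for 39 members, all but Plin3, and replicates 1 and 2 were the lowest for 38, all but Plin3 and Gpihbp1, as they were for 32.8% and 22.1% of tested genes. The control FIPs were even: the median SD of the members was 0.10 log2 units there, near the 0.12 of all tested genes. It was 0.25 in control APCs, 0.28 in APCs labelled transgenic and 0.30 in FIPs labelled transgenic, against 0.15, 0.14 and 0.12 over all tested genes.

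The same libraries stood apart in adipocyte markers that are not members, and in part in markers of other cells. A list of 21 gene symbols, older names included, was searched for such markers, among them the β3-adrenergic receptor Adrb3, the lactate receptor Hcar1 and the gluconeogenic enzyme Pck1. Of these symbols 18 were in the table, all 18 above 0 in every library. Their summed level lay between 1038 and 1681 CPM in control APCs, between 688 and 1286 in APCs labelled transgenic, between 723 and 845 in control FIPs and between 493 and 895 in FIPs labelled transgenic. In APCs labelled transgenic, replicate 1 had 1286 CPM and the other 4 had 756, 831, 821 and 688. In FIPs labelled transgenic, replicates 4 and 5 had 503 and 493 CPM, below the 759 to 895 of the other 3. Of the 18 markers, 17 were lower in control FIPs than in control APCs, and 6 were lower in APCs labelled transgenic than in controls. The exception in controls was Adcy5, at 6.34 log2 CPM in APCs and 6.38 in FIPs. Cd300lg moved least between genotypes in APCs (6.30 in controls, 6.19 labelled transgenic), and in FIPs it read 5.36 and 5.55. The list's median differences between genotypes were −0.69 in APCs and −0.27 in FIPs. Erythroid markers stood apart likewise: replicate 1 of the APCs labelled transgenic summed to 1043 CPM, against 454 to 602 in the other 4. Replicates 4 and 5 of the FIPs labelled transgenic had 318 and 308, below the 478 to 559 of the other 3. These 2 libraries were also the lowest of that group for macrophage (478 and 434 CPM) and endothelial markers (1240 and 1111 CPM). The same held for mesothelial (237 and 238 CPM) and brown and beige adipocyte markers (24.4 and 24.6 CPM). For mural markers replicate 5 was the lowest (478 CPM), while replicate 4 (542) lay above replicate 2 (534). Mesothelial markers summed to 283 CPM in that APC replicate 1, against 201 to 225, and macrophage markers to 598, against 438 to 546. The summed level of mural markers did not peak there (923 CPM, below 930 in replicate 3). That sum is weighted to the abundant Notch3, at 8.46 log2 CPM in APCs labelled transgenic. The mean log2 level of the mural markers was highest in replicate 1, at 5.15, against 4.72 to 5.05 in the others. The part of these markers in the member results was not tested.

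Over the 40 members, the summed level was between 9724 and 13430 CPM in control APCs, or 0.972 to 1.34% of all counted reads, between 7706 and 11020 CPM in APCs labelled transgenic, between 7685 and 8251 in control FIPs and between 6245 and 8468 in FIPs labelled transgenic. The 10 members that define adipocytes (Adipoq, Plin1, Plin4, Cidec, Lep, Retn, Cfd, Car3, Pnpla3 and Slc2a4) summed to between 1833 and 2690, between 1284 and 2160, between 1309 and 1520 and between 882 and 1515 CPM in the same order, and none was at 0 in any library. In bulk RNA, fewer cells of a type and less RNA per cell cannot be told apart.

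**Figure D2:**
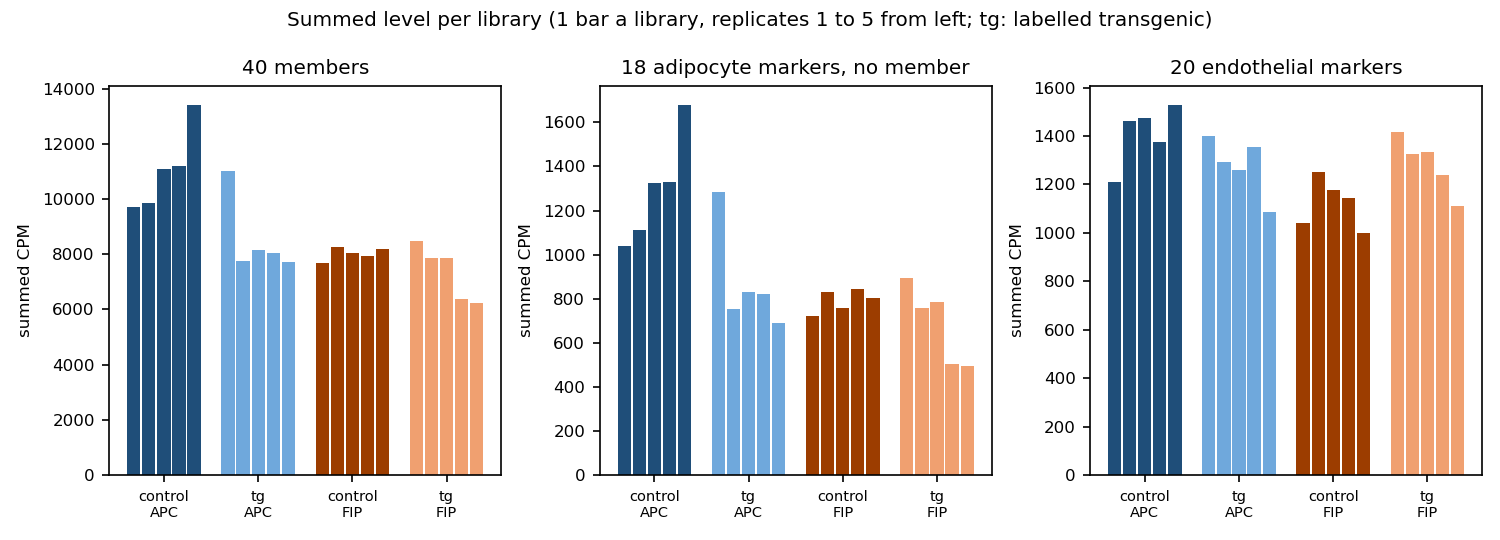
Summed CPM of the 40 members, of 18 adipocyte markers that are not members and of 20 endothelial markers, with 1 bar per library and replicates 1 to 5 from left in each group. Members and adipocyte markers share the tall bars of control APC replicate 5 and replicate 1 of the APCs labelled transgenic (1286 CPM of the 18 markers). The endothelial bars of these libraries are also the highest of their groups, at 1530 and 1399 CPM, above the next at 1474 and 1354 CPM. Endothelial bars lie between 997 and 1251 CPM in control FIPs and between 1211 and 1530 CPM in control APCs.

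Adipokines, the hormones and factors that fat cells secrete, were the first role group. Its 4 members were all lower in FIPs of controls, 2 were lower in APCs labelled transgenic, and 2 were lower in FIPs than in APCs of the transgenic label. Adipoq encodes adiponectin, the insulin-sensitising hormone made almost only by fat cells. Adipoq read 7.17, 7.20, 7.36, 7.34 and 7.57 in control APCs and 7.37, 6.75, 6.86, 6.85 and 6.68 in APCs labelled transgenic. Control FIPs had Adipoq at 6.80, 6.92, 6.88, 6.93 and 6.89, and FIPs labelled transgenic had 6.90, 6.76, 6.77, 6.32 and 6.26. Every control FIP library lay below every control APC library, while replicate 1 of the APCs labelled transgenic (7.37) lay among the controls. The difference of FIPs from APCs was −0.44 (SE 0.12, adjusted p = 0.00541) in controls and −0.30 (SE 0.12, adjusted p = 0.0557) under the transgenic label, and that between genotypes in APCs was −0.43 (SE 0.12, adjusted p = 0.0406).

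Lep, which encodes the satiety hormone leptin, had the largest FIP to APC difference of this role in controls. Lep read 6.03, 6.15, 6.47, 6.37 and 6.88 in control APCs and 6.40, 5.44, 5.58, 5.59 and 5.19 in APCs labelled transgenic. Control FIPs had Lep at 5.25, 5.81, 5.54, 5.71 and 5.45, and FIPs labelled transgenic had 5.56, 5.33, 5.37, 4.46 and 4.35. Replicates 4 and 5 of the last group lay below every other library of the study for Lep. The difference of FIPs from APCs was −0.83 (SE 0.23, adjusted p = 0.00607) in controls and −0.63 (SE 0.23, adjusted p = 0.0357) under the transgenic label, and that between genotypes in APCs, −0.74 (SE 0.23, adjusted p = 0.0537), did not pass.

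Retn encodes resistin, a secreted factor of mouse adipocytes. Retn read 5.96, 6.01, 6.21, 6.22 and 6.49 in control APCs and 6.18, 5.51, 5.64, 5.55 and 5.52 in APCs labelled transgenic. Control FIPs had Retn at 5.47, 5.73, 5.66, 5.61 and 5.70, and FIPs labelled transgenic had 5.66, 5.57, 5.53, 5.0 and 4.90. Its control FIPs lay below its control APCs without overlap (−0.54, SE 0.15, adjusted p = 0.00426), and between genotypes in APCs it differed by −0.50 (SE 0.15, adjusted p = 0.0427). Cfd, the complement protease adipsin, had the smallest differences of the 4. Cfd read 7.45, 7.46, 7.53, 7.58 and 7.73 in control APCs and 7.57, 7.29, 7.34, 7.27 and 7.39 in APCs labelled transgenic. Control FIPs had Cfd at 7.31, 7.34, 7.46, 7.34 and 7.31, and FIPs labelled transgenic had 7.29, 7.31, 7.29, 7.04 and 6.96. The highest control FIP library, 7.46, lay just above the lowest control APC library, 7.45. The difference in controls was −0.20 (SE 0.07, adjusted p = 0.026), a call that did not hold after median centring, and it was −0.19 (SE 0.07, adjusted p = 0.0322) under the transgenic label.

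**Figure D3:**
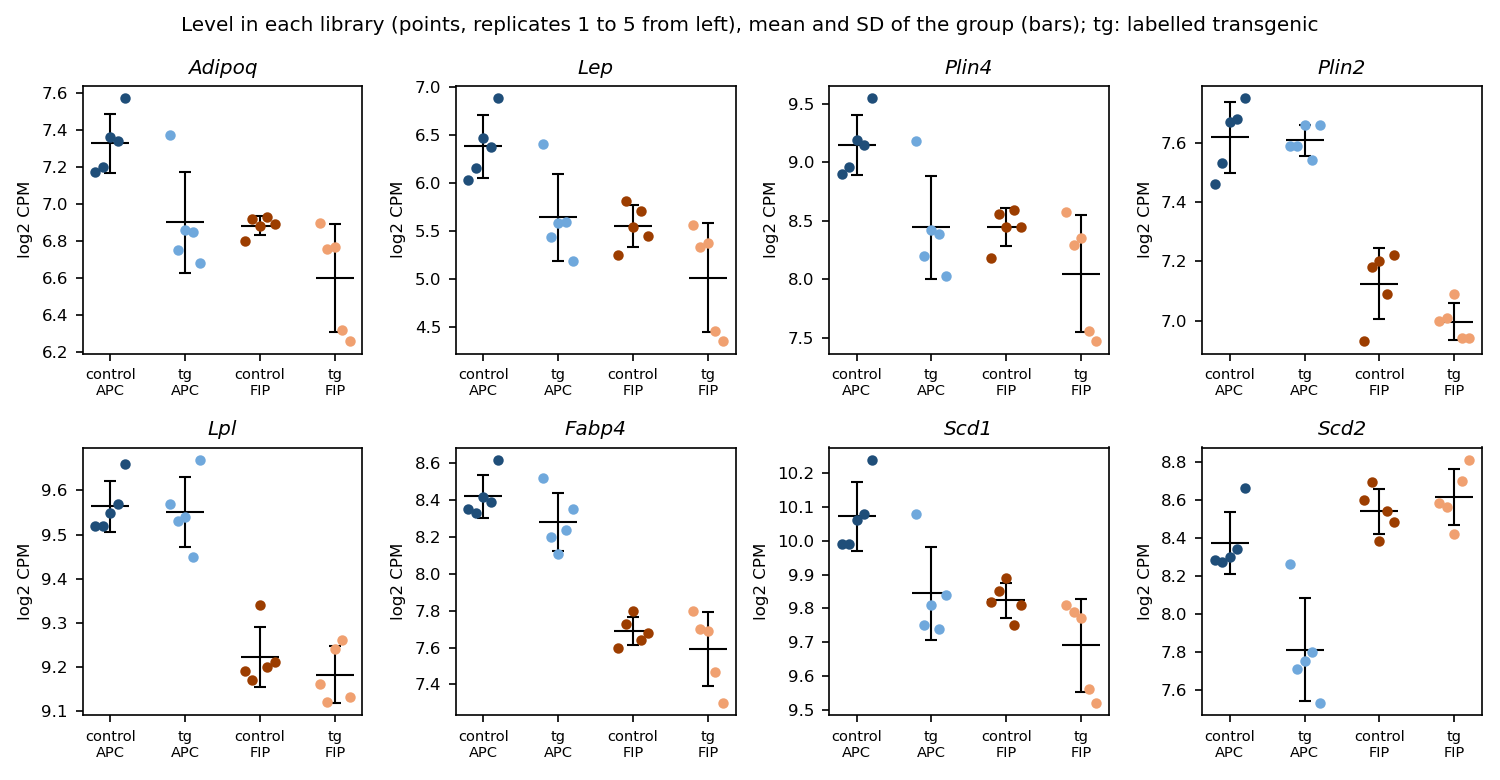
Log2 CPM of 8 members in each library (points, replicates 1 to 5 from left), with the mean and SD of each group of 5. Adipoq, Lep, Plin4 and Scd1 share the high replicate 1 of the APCs labelled transgenic and the low replicates 4 and 5 of the FIPs labelled transgenic, Plin2, Lpl and Fabp4 separate FIPs from APCs under both labels, and Scd2 is lowest in APCs labelled transgenic.

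The lipid droplet coat came next, with 7 of its 8 members lower in control FIPs, 4 lower in APCs labelled transgenic and 1, Plin2, lower in FIPs under the transgenic label. Plin1 encodes perilipin 1, the gatekeeper of lipolysis on the adipocyte droplet. Plin1 read 8.06, 8.15, 8.41, 8.37 and 8.71 in control APCs and 8.33, 7.59, 7.71, 7.65 and 7.50 in APCs labelled transgenic. Control FIPs had Plin1 at 7.48, 7.74, 7.67, 7.73 and 7.67, and FIPs labelled transgenic had 7.82, 7.57, 7.61, 6.80 and 6.79. It was lower in control FIPs (−0.68, SE 0.18, adjusted p = 0.00436), and its difference between genotypes in APCs, −0.58 (SE 0.18, adjusted p = 0.0529), missed the threshold.

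Plin4, a perilipin of nascent droplets in adipocytes, was also lower in control FIPs. Plin4 read 8.90, 8.96, 9.19, 9.15 and 9.55 in control APCs and 9.18, 8.20, 8.42, 8.39 and 8.03 in APCs labelled transgenic. Control FIPs had Plin4 at 8.18, 8.56, 8.45, 8.59 and 8.45, and FIPs labelled transgenic had 8.58, 8.29, 8.35, 7.56 and 7.47. It passed in control mice (−0.70, SE 0.21, adjusted p = 0.00798) and between genotypes in APCs (−0.71, SE 0.21, adjusted p = 0.0427). Its neighbour Plin5 lay far lower and had the largest difference of the droplet genes in controls. Plin5 read 2.43, 2.29, 3.0, 3.05 and 3.46 in control APCs and 2.64, 1.43, 2.01, 1.69 and 1.92 in APCs labelled transgenic. Control FIPs had Plin5 at 1.80, 1.72, 1.70, 1.91 and 1.56, and FIPs labelled transgenic had 2.18, 1.72, 2.14, 1.2 and 0.72. Its differences were −1.11 (SE 0.27, adjusted p = 0.0021) in controls and −0.91 (SE 0.27, adjusted p = 0.0452) between genotypes in APCs.

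Cidec, which fuses droplets into the single droplet of white fat, separated both populations in controls. Cidec read 7.39, 7.45, 7.67, 7.70 and 8.02 in control APCs and 7.67, 6.94, 7.09, 7.05 and 6.80 in APCs labelled transgenic. Control FIPs had Cidec at 6.93, 7.13, 7.06, 7.13 and 7.04, and FIPs labelled transgenic had 7.14, 6.92, 6.97, 6.39 and 6.36. The differences were −0.59 (SE 0.16, adjusted p = 0.00414) in controls and −0.54 (SE 0.16, adjusted p = 0.0428) between genotypes in APCs. Bscl2 encodes seipin, which organises droplet budding from the endoplasmic reticulum. Bscl2 read 6.39, 6.47, 6.65, 6.5 and 6.83 in control APCs and 6.53, 6.13, 6.25, 6.22 and 6.10 in APCs labelled transgenic. Control FIPs had Bscl2 at 6.10, 6.26, 6.32, 6.22 and 6.25, and FIPs labelled transgenic had 6.24, 6.12, 6.18, 6.06 and 6.0. It differed by −0.34 (SE 0.08, adjusted p = 0.00169) in controls and by −0.32 (SE 0.08, adjusted p = 0.0274) between genotypes in APCs. Cidea, a relative of Cidec typical of brown fat, lay between 3.22 and 5.67 log2 CPM over all libraries and was lower in control FIPs (−1.07, SE 0.27, adjusted p = 0.00271).

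Plin2 and Plin3 coat droplets in most cell types, and neither passed between genotypes in APCs. Both are shown because of their values. Plin2 read 7.46, 7.53, 7.67, 7.68 and 7.75 in control APCs and 7.59, 7.59, 7.66, 7.54 and 7.66 in APCs labelled transgenic. Control FIPs had Plin2 at 6.93, 7.18, 7.20, 7.09 and 7.22, and FIPs labelled transgenic had 7.0, 7.01, 7.09, 6.94 and 6.94. FIPs lay below APCs without overlap under both labels, with differences of −0.49 (SE 0.06, adjusted p = 4.11e-07) in controls and −0.61 (SE 0.06, adjusted p = 1.63e-08) under the transgenic label. Between genotypes in APCs Plin2 differed by −0.01 (SE 0.06, adjusted p = 0.945), with a 95% confidence interval of −0.13 to 0.11, and centring moved it to 0.08. Plin3 read 7.06, 6.88, 6.71, 6.74 and 6.68 in control APCs and 6.90, 6.88, 6.86, 6.93 and 6.83 in APCs labelled transgenic. Control FIPs had Plin3 at 6.93, 6.94, 6.88, 6.87 and 6.87, and FIPs labelled transgenic had 6.89, 6.90, 6.91, 6.82 and 6.96. It passed in 0 of the 5 comparisons, and its interval for FIPs against APCs in controls was −0.03 to 0.19.

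All 6 genes of fatty acid uptake and carriage were lower in control FIPs, 3 (Lpl, Cd36 and Fabp4) were lower in FIPs under the transgenic label, and 2 (Cd36 and Acsl1) were lower in APCs labelled transgenic. Lpl, lipoprotein lipase, frees fatty acids from circulating triglyceride; it is shown because of its values. Lpl read 9.52, 9.52, 9.55, 9.57 and 9.66 in control APCs and 9.57, 9.53, 9.54, 9.45 and 9.67 in APCs labelled transgenic. Control FIPs had Lpl at 9.19, 9.17, 9.34, 9.20 and 9.21, and FIPs labelled transgenic had 9.16, 9.12, 9.24, 9.26 and 9.13. No FIP library reached the lowest APC library under either label, and the differences were −0.34 (SE 0.04, adjusted p = 1.81e-06) and −0.37 (SE 0.04, adjusted p = 5.42e-07). Between genotypes in APCs it differed by −0.01 (SE 0.04, adjusted p = 0.909), with an interval of −0.10 to 0.08, and by 0.08 after centring.

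Fabp4 encodes the main fatty acid binding protein of fat cells, also made by endothelium and macrophages, and had the largest control difference of this role. Fabp4 read 8.35, 8.33, 8.42, 8.39 and 8.62 in control APCs and 8.52, 8.20, 8.11, 8.24 and 8.35 in APCs labelled transgenic. Control FIPs had Fabp4 at 7.60, 7.73, 7.80, 7.64 and 7.68, and FIPs labelled transgenic had 7.80, 7.70, 7.69, 7.47 and 7.30. FIPs lay below APCs without overlap under both labels (−0.73, SE 0.08, adjusted p = 4.94e-07 in controls, −0.69, SE 0.08, adjusted p = 9.41e-07 under the transgenic label). Between genotypes in APCs the difference was −0.14 (SE 0.08, adjusted p = 0.32), with an interval of −0.31 to 0.04.

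Cd36, the fatty acid translocase of the plasma membrane, passed in 3 comparisons. Cd36 read 8.34, 8.45, 8.54, 8.46 and 8.70 in control APCs and 8.52, 8.07, 8.10, 8.08 and 7.97 in APCs labelled transgenic. Control FIPs had Cd36 at 7.86, 8.16, 8.13, 7.98 and 7.89, and FIPs labelled transgenic had 8.07, 8.00, 8.04, 7.71 and 7.55. FIPs differed from APCs by −0.49 (SE 0.10, adjusted p = 0.000664) in controls and by −0.27 (SE 0.10, adjusted p = 0.0412) under the transgenic label, and the genotypes differed in APCs by −0.35 (SE 0.10, adjusted p = 0.0462). Acsl1 activates fatty acids to their coenzyme A esters. Acsl1 read 7.87, 7.86, 8.17, 8.22 and 8.64 in control APCs and 8.19, 7.36, 7.48, 7.48 and 7.19 in APCs labelled transgenic. Control FIPs had Acsl1 at 7.39, 7.48, 7.32, 7.42 and 7.58, and FIPs labelled transgenic had 7.67, 7.46, 7.48, 6.80 and 6.74. It was lower in control FIPs (−0.71, SE 0.19, adjusted p = 0.0037) and in APCs labelled transgenic (−0.61, SE 0.19, adjusted p = 0.0487). Fabp5 (between 4.78 and 5.93 log2 CPM over all libraries) and Gpihbp1, the capillary anchor of lipoprotein lipase (between 4.15 and 5.35), passed in controls alone, with differences of −0.66 (SE 0.11, adjusted p = 5.45e-05) and −0.59 (SE 0.15, adjusted p = 0.00375).

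Slc2a4 and Aqp7 encode the transporters of glucose and glycerol among the members, and both were lower in control FIPs and in APCs labelled transgenic. Slc2a4 encodes the insulin-responsive glucose transporter GLUT4. Slc2a4 read 5.77, 5.78, 6.24, 6.36 and 6.82 in control APCs and 6.26, 5.06, 5.28, 5.27 and 4.96 in APCs labelled transgenic. Control FIPs had Slc2a4 at 5.11, 5.11, 5.10, 5.19 and 5.38, and FIPs labelled transgenic had 5.53, 5.08, 5.01, 4.19 and 4.23. Its differences were −1.02 (SE 0.25, adjusted p = 0.00261) in controls and −0.83 (SE 0.25, adjusted p = 0.0494) between genotypes in APCs. Aqp7 is the glycerol channel of fat cells. Aqp7 read 5.18, 5.49, 5.72, 5.74 and 6.10 in control APCs and 5.67, 4.64, 4.84, 4.96 and 4.47 in APCs labelled transgenic. Control FIPs had Aqp7 at 4.31, 4.73, 4.61, 4.78 and 4.80, and FIPs labelled transgenic had 4.88, 4.68, 4.84, 4.16 and 3.84. The corresponding differences of Aqp7 were −1.0 (SE 0.22, adjusted p = 0.000769) and −0.73 (SE 0.22, adjusted p = 0.0446).

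Triglyceride assembly was lower throughout in control FIPs (6 of 6), with 4 members lower in APCs labelled transgenic and 2 (Gpam and Lpin1) lower in FIPs under the transgenic label. Gpd1 makes glycerol 3-phosphate, the backbone of triglyceride, and differed most in controls. Gpd1 read 7.50, 7.53, 7.79, 7.85 and 8.14 in control APCs and 7.75, 6.91, 7.10, 7.04 and 6.80 in APCs labelled transgenic. Control FIPs had Gpd1 at 6.97, 6.99, 6.86, 6.95 and 7.14, and FIPs labelled transgenic had 7.22, 7.03, 7.07, 6.37 and 6.30. Its differences were −0.78 (SE 0.18, adjusted p = 0.00126) in controls and −0.64 (SE 0.18, adjusted p = 0.0372) between genotypes in APCs. Gpam adds the first acyl chain to that backbone. Gpam read 6.84, 6.73, 6.93, 6.97 and 7.29 in control APCs and 6.94, 6.63, 6.49, 6.51 and 6.35 in APCs labelled transgenic. Control FIPs had Gpam at 6.18, 6.34, 6.30, 6.39 and 6.38, and FIPs labelled transgenic had 6.29, 6.33, 6.23, 6.22 and 6.34. Gpam was even among the FIPs labelled transgenic, and FIPs were lower without overlap under both labels (−0.63, SE 0.09, adjusted p = 1.24e-05 in controls, −0.30, SE 0.09, adjusted p = 0.0123 under the transgenic label), while in APCs the genotypes differed by −0.37 (SE 0.09, adjusted p = 0.028).

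Agpat2 adds the second chain and is mutated in congenital lipodystrophy. Agpat2 read 6.72, 6.65, 7.0, 7.04 and 7.35 in control APCs and 6.99, 6.20, 6.29, 6.37 and 6.19 in APCs labelled transgenic. Control FIPs had Agpat2 at 6.13, 6.26, 6.16, 6.14 and 6.43, and FIPs labelled transgenic had 6.48, 6.30, 6.22, 5.74 and 5.66. It differed by −0.73 (SE 0.16, adjusted p = 0.0011) in controls and by −0.54 (SE 0.16, adjusted p = 0.0466) between genotypes in APCs. Dgat2 catalyses the last step, from diglyceride to triglyceride. Dgat2 read 7.85, 7.85, 8.08, 8.06 and 8.41 in control APCs and 8.06, 7.32, 7.48, 7.44 and 7.26 in APCs labelled transgenic. Control FIPs had Dgat2 at 7.24, 7.52, 7.37, 7.52 and 7.45, and FIPs labelled transgenic had 7.56, 7.39, 7.39, 6.74 and 6.71. The differences were −0.63 (SE 0.16, adjusted p = 0.00322) in controls and −0.54 (SE 0.16, adjusted p = 0.0466) between genotypes in APCs. Dgat1, the other enzyme of that step, lay between 5.71 and 7.05 log2 CPM over all libraries, and was lower in control FIPs (−0.62, SE 0.13, adjusted p = 0.000582). Lpin1, the phosphatidate phosphatase lipin 1, lay between 6.32 and 7.75 and was lower there too (−0.70, SE 0.13, adjusted p = 0.000266). Under the transgenic label Lpin1 passed narrowly (−0.34, SE 0.13, adjusted p = 0.05 after rounding), and missed the threshold in 7 of 10 fits that left out 1 library.

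De novo lipogenesis, the path from glucose to fatty acid, had 7 of 9 members lower in control FIPs and 8 of 9 lower in APCs labelled transgenic. The latter was the largest count of any role, but this is also the role with the most members. Glucose and glycerol transport had 2 of 2 lower there, and 5.91% of all tested genes passed as lower. Under the transgenic label FIPs had 0 lower and 1 higher, Scd2, with 3 at an unadjusted p under 0.05. Acly splits citrate to supply acetyl coenzyme A. Acly read 9.01, 9.03, 9.12, 9.17 and 9.38 in control APCs and 9.13, 8.76, 8.78, 8.78 and 8.81 in APCs labelled transgenic. Control FIPs had Acly at 9.01, 8.99, 8.99, 8.89 and 9.01, and FIPs labelled transgenic had 9.0, 8.96, 8.93, 8.81 and 8.81. The groups of controls met at 9.01, and the gene passed only between genotypes in APCs (−0.29, SE 0.07, adjusted p = 0.024; FIPs against APCs in controls −0.16, SE 0.07, adjusted p = 0.0584). Acaca carboxylates that product to malonyl coenzyme A. Acaca read 8.95, 8.91, 9.32, 9.36 and 9.77 in control APCs and 9.27, 8.5, 8.57, 8.57 and 8.34 in APCs labelled transgenic. Control FIPs had Acaca at 8.55, 8.64, 8.48, 8.57 and 8.78, and FIPs labelled transgenic had 8.80, 8.64, 8.59, 8.14 and 8.28. It differed by −0.66 (SE 0.16, adjusted p = 0.00255) in controls and by −0.61 (SE 0.16, adjusted p = 0.0333) between genotypes in APCs.

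Fasn assembles palmitate and was among the most abundant members. Fasn read 10.47, 10.47, 10.60, 10.61 and 10.80 in control APCs and 10.59, 10.13, 10.22, 10.17 and 10.13 in APCs labelled transgenic. Control FIPs had Fasn at 10.18, 10.20, 10.19, 10.14 and 10.25, and FIPs labelled transgenic had 10.26, 10.19, 10.15, 9.82 and 9.79. Its differences were −0.40 (SE 0.09, adjusted p = 0.00166) in controls and −0.34 (SE 0.09, adjusted p = 0.0358) between genotypes in APCs. Elovl6 lengthens palmitate to stearate. Elovl6 read 7.37, 7.29, 7.64, 7.67 and 8.13 in control APCs and 7.62, 6.95, 7.02, 7.13 and 6.88 in APCs labelled transgenic. Control FIPs had Elovl6 at 7.08, 7.06, 6.81, 6.95 and 7.22, and FIPs labelled transgenic had 7.31, 7.14, 7.01, 6.73 and 6.82. It was lower in control FIPs (−0.60, SE 0.15, adjusted p = 0.00245) and in APCs labelled transgenic (−0.50, SE 0.15, adjusted p = 0.0446). Me1, malic enzyme, provides NADPH for the synthase. Me1 read 8.06, 8.08, 8.37, 8.40 and 8.72 in control APCs and 8.32, 7.64, 7.77, 7.77 and 7.53 in APCs labelled transgenic. Control FIPs had Me1 at 7.59, 7.68, 7.61, 7.60 and 7.77, and FIPs labelled transgenic had 7.88, 7.76, 7.77, 7.23 and 7.27. Its differences were −0.68 (SE 0.15, adjusted p = 0.00076) and −0.52 (SE 0.15, adjusted p = 0.0383).

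Mlxipl encodes ChREBP, the glucose-sensing factor that switches on lipogenic genes, and had the largest differences of this role in both comparisons. Mlxipl read 5.57, 5.69, 6.08, 6.26 and 6.58 in control APCs and 5.89, 4.94, 4.87, 5.04 and 4.63 in APCs labelled transgenic. Control FIPs had Mlxipl at 4.94, 4.88, 4.85, 5.0 and 5.04, and FIPs labelled transgenic had 5.26, 4.88, 4.92, 4.23 and 4.13. They amounted to −1.09 (SE 0.23, adjusted p = 0.000529) in controls and −0.96 (SE 0.23, adjusted p = 0.0219) between genotypes in APCs. Thrsp, the lipogenic protein Spot 14, lay between 6.0 and 7.49 log2 CPM and was lower in control FIPs (−0.57, SE 0.15, adjusted p = 0.00375).

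The neighbouring desaturase genes Scd1 and Scd2 parted. Scd1, the desaturase of fat and liver, read 9.99, 9.99, 10.06, 10.08 and 10.24 in control APCs and 10.08, 9.75, 9.81, 9.74 and 9.84 in APCs labelled transgenic. Control FIPs had Scd1 at 9.82, 9.85, 9.89, 9.75 and 9.81, and FIPs labelled transgenic had 9.81, 9.79, 9.77, 9.56 and 9.52. It was lower in control FIPs (−0.25, SE 0.07, adjusted p = 0.00469) and in APCs labelled transgenic (−0.23, SE 0.07, adjusted p = 0.044). Scd2, which is expressed in many tissues, read 8.28, 8.27, 8.30, 8.34 and 8.66 in control APCs and 8.26, 7.71, 7.75, 7.80 and 7.53 in APCs labelled transgenic. Control FIPs had Scd2 at 8.60, 8.69, 8.38, 8.54 and 8.48, and FIPs labelled transgenic had 8.58, 8.56, 8.42, 8.70 and 8.81. In controls the difference of FIPs from APCs did not pass (0.17, SE 0.11, adjusted p = 0.2). It did pass as higher after median centring and with array weights. Under the transgenic label Scd2 was higher in FIPs without overlap (0.80, SE 0.11, adjusted p = 2.54e-06), as 16.6% of tested genes were. In APCs it was lower in libraries labelled transgenic (−0.56, SE 0.11, adjusted p = 0.00898), a call that held without each single library, and its interaction of 0.64 had an adjusted p of 0.121 and passed without replicate 1 of the APCs labelled transgenic. How reads that match both desaturases were counted was not given in the sources used here.

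Lipolysis, the release of stored fatty acids, had 3 of 4 members lower in control FIPs and 3 of 4 lower in APCs labelled transgenic, and under the transgenic label 0 passed in limma, with 2 at an unadjusted p under 0.05. Pnpla2 encodes ATGL, the lipase of the first step. Pnpla2 read 7.64, 7.67, 7.89, 7.91 and 8.15 in control APCs and 7.86, 7.21, 7.34, 7.38 and 7.25 in APCs labelled transgenic. Control FIPs had Pnpla2 at 7.16, 7.33, 7.25, 7.30 and 7.33, and FIPs labelled transgenic had 7.46, 7.30, 7.26, 6.81 and 6.76. Its differences were −0.58 (SE 0.13, adjusted p = 0.00119) in controls and −0.44 (SE 0.13, adjusted p = 0.0446) between genotypes in APCs. Lipe, hormone-sensitive lipase, acts next. Lipe read 7.46, 7.58, 7.79, 7.87 and 8.17 in control APCs and 7.80, 6.97, 7.11, 7.10 and 6.92 in APCs labelled transgenic. Control FIPs had Lipe at 6.91, 7.16, 7.03, 7.12 and 7.15, and FIPs labelled transgenic had 7.30, 7.0, 7.07, 6.41 and 6.35. Lipe differed by −0.70 (SE 0.18, adjusted p = 0.00277) in controls and by −0.59 (SE 0.18, adjusted p = 0.0452) between genotypes in APCs.

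Pnpla3, adiponutrin, is induced by feeding. Pnpla3 read 5.72, 5.72, 6.08, 6.13 and 6.59 in control APCs and 6.05, 5.13, 5.26, 5.30 and 4.95 in APCs labelled transgenic. Control FIPs had Pnpla3 at 5.05, 5.33, 5.23, 5.34 and 5.37, and FIPs labelled transgenic had 5.37, 5.16, 5.11, 4.33 and 4.21. It passed in controls (−0.78, SE 0.22, adjusted p = 0.00586), and between genotypes in APCs it just missed (−0.71, SE 0.22, adjusted p = 0.0502). Mgll, monoglyceride lipase, completes the breakdown and is found well beyond fat. Mgll read 7.47, 7.63, 7.85, 7.83 and 8.13 in control APCs and 7.75, 7.07, 7.22, 7.28 and 6.93 in APCs labelled transgenic. Control FIPs had Mgll at 7.41, 7.68, 7.53, 7.67 and 7.52, and FIPs labelled transgenic had 7.71, 7.57, 7.53, 7.18 and 7.19. FIPs and APCs of controls overlapped (−0.22, SE 0.14, adjusted p = 0.192), and Mgll was lower in APCs labelled transgenic (−0.53, SE 0.14, adjusted p = 0.0285). Car3, carbonic anhydrase 3, is an abundant enzyme of fat and muscle. Car3 read 8.52, 8.51, 8.60, 8.59 and 8.79 in control APCs and 8.64, 8.24, 8.29, 8.21 and 8.30 in APCs labelled transgenic. Control FIPs had Car3 at 8.22, 8.33, 8.39, 8.29 and 8.25, and FIPs labelled transgenic had 8.25, 8.19, 8.23, 7.91 and 7.80. FIPs differed from APCs by −0.31 (SE 0.09, adjusted p = 0.00621) in controls and by −0.26 (SE 0.09, adjusted p = 0.0193) under the transgenic label.

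**Figure D4:**
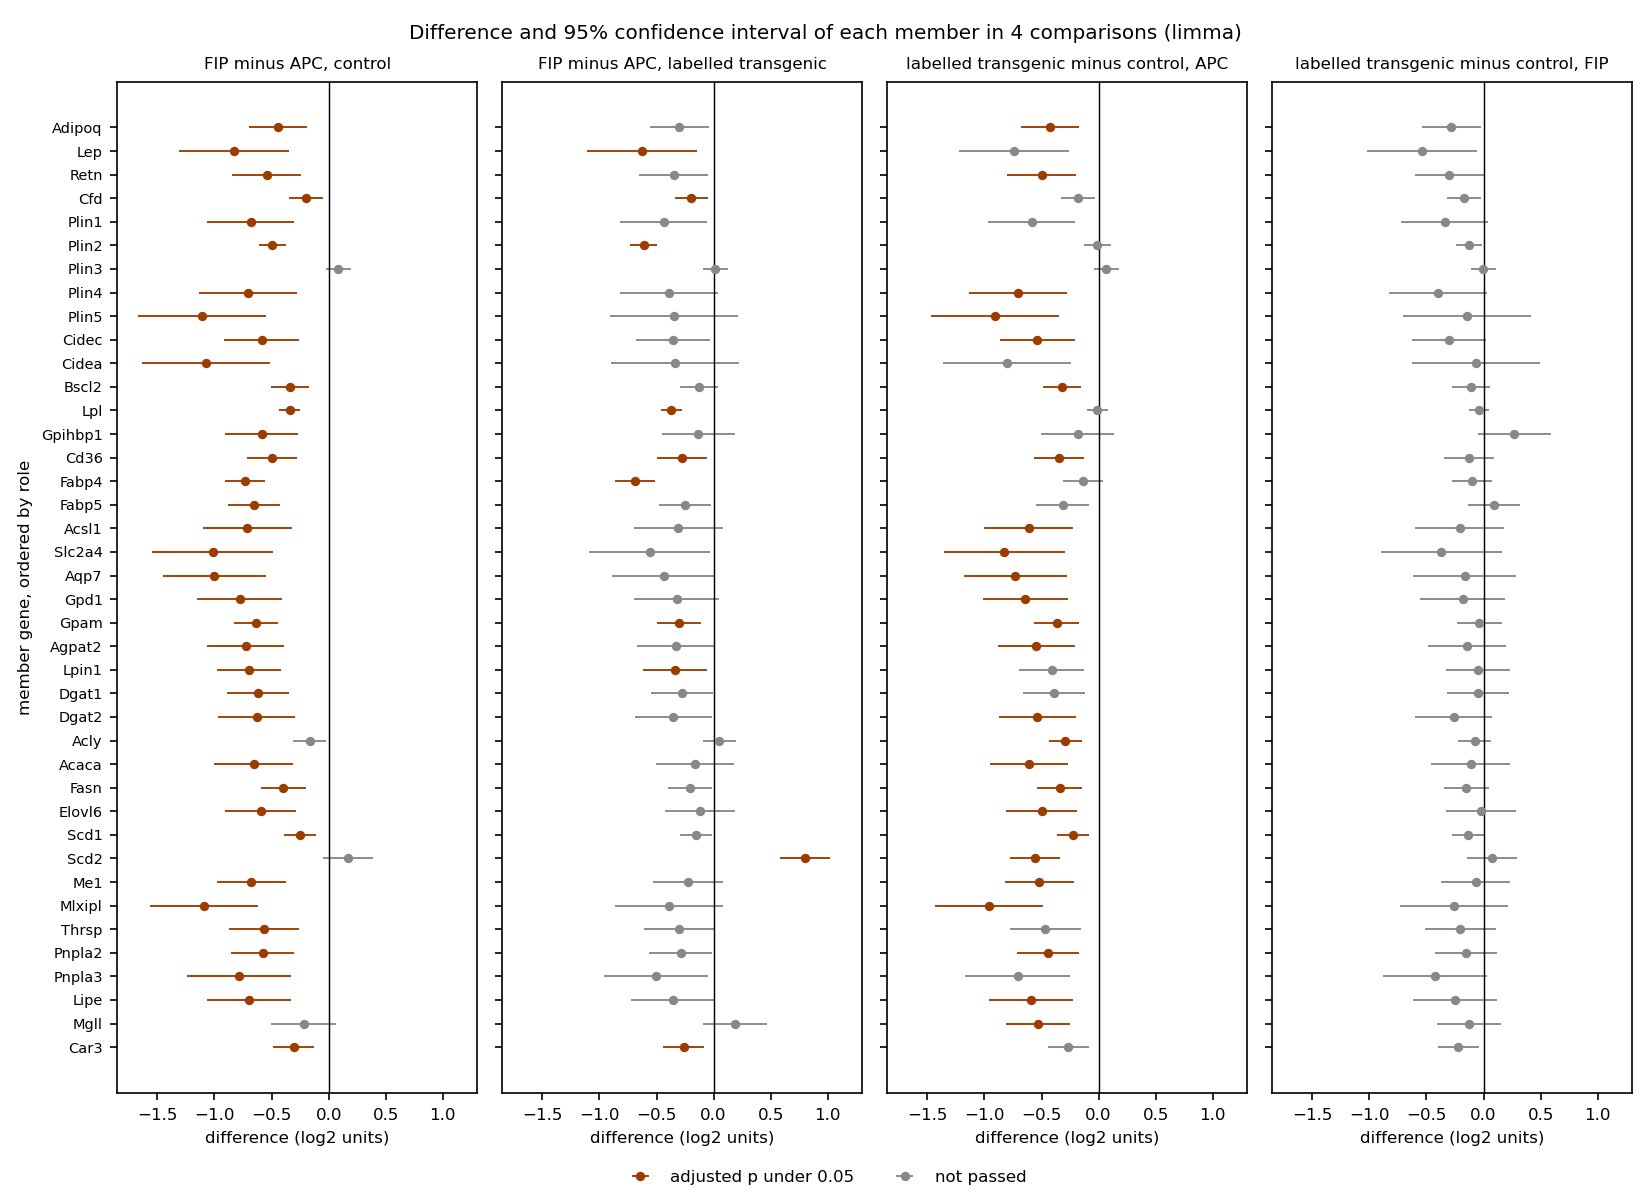
Difference of each member in 4 comparisons (points, log2 units) with its 95% confidence interval (bars), coloured where the limma adjusted p was under 0.05. In controls 36 members are lower in FIPs, under the transgenic label 9 are lower and Scd2 is higher, in APCs 25 are lower in libraries labelled transgenic, and in FIPs 0 passed.

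Under the transgenic label, FIPs had 9 members lower than APCs (Lep, Cfd, Plin2, Lpl, Cd36, Fabp4, Gpam, Lpin1 and Car3) and 1 higher (Scd2). Of all tested genes, 19% passed as lower and 22.7% as higher. With replicate number as a block, 29 members were lower and 1 higher, against 21.3% and 23.6% of all genes, and the labels do not say whether a number marks the same mice. The members' median was −0.31 log2 units, against −0.01. In 4 members (Plin2, Lpl, Fabp4 and Gpam) FIPs lay below APCs without overlap, as 12.4% of tested genes did. The number that passed in either direction was 6 without replicate 1 of the APCs, 25 without replicate 1 of the FIPs, 5 without replicate 4, replicate 5 or both of the FIPs, and 27 after centring. The shares of all tested genes were 40.9%, 39.4%, 39.6%, 38.3%, 35.9% and 41.7%, in that order. Plin2, Lpl, Fabp4, Gpam and Scd2 passed in each of the 10 fits that left out 1 library, and Lep, Cfd, Cd36, Lpin1 and Car3 missed the threshold in 3 to 7 of them. Calls over all genes were higher in FIPs in 54.5% of cases, and in 43.8% after centring.

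In FIPs, 0 of the 40 members differed between the genotypes in limma, with 0.132% of all tested genes lower and 0.241% higher. Those with an unadjusted p under 0.05 were 5, namely Adipoq, Lep, Cfd, Plin2 and Car3. Differences were below 0 for 37 members, with a median of −0.14 log2 units against 0.01. Adipoq differed by −0.28, with a 95% confidence interval of −0.54 to −0.03, Lep by −0.54 (−1.02 to −0.05) and Car3 by −0.22 (−0.40 to −0.04). Gpihbp1 lay on the other side, at 0.27 (−0.05 to 0.59). Without replicates 4 and 5 of the FIPs labelled transgenic, the members' median was 0.03 log2 units and 0 passed. Of all calls, 64.6% were higher in libraries labelled transgenic, and 51.9% after centring.

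Whether the genotypes differed by different amounts in FIPs and APCs was tested as an interaction, for which 0 members and 0% of all genes passed in limma, with 9 members and 2388 genes at an unadjusted p under 0.05. The interaction was above 0 for 37 members, with a median of 0.30 log2 units against 0.05. Plin5 had the largest, 0.76 (−0.03 to 1.56), followed by Cidea at 0.74 and Mlxipl at 0.70. Centring lowered every interaction by 0.116 log2 units, which put Cfd, Fabp4, Scd1 and Car3 below 0. The 3 libraries that stood apart were replicate 1 of the APCs and replicates 4 and 5 of the FIPs labelled transgenic. Without them 31 members passed as higher, against 4.5% of all tested genes, while 0.654% of tested genes passed as lower. Those libraries were picked for their levels of these same genes, so that count has no independent support.

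How closely each member moved with the 18 other adipocyte markers was described by its slope on their mean log2 level over the 20 libraries, after the mean of each group was removed. Members and markers share the depth and makeup of each library. A slope of 1 means that the gene changed by as much as the markers. The median slope was 0.661 for the members and 0.0409 for all tested genes, and 26 of 40 members exceeded 0.5, against 9.39% of all genes. Cidea at 1.25, Slc2a4 at 1.25, Plin5 at 1.14, Lep at 1.14 and Mlxipl at 1.10 had the steepest slopes. Adipoq had 0.60, Fasn 0.44, Fabp4 0.33, Cfd 0.29 and Scd1 0.28. At the low end stood Scd2 at 0.22, Plin2 at 0.12, Lpl at 0.0042 and Plin3 at −0.08.

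**Figure D5:**
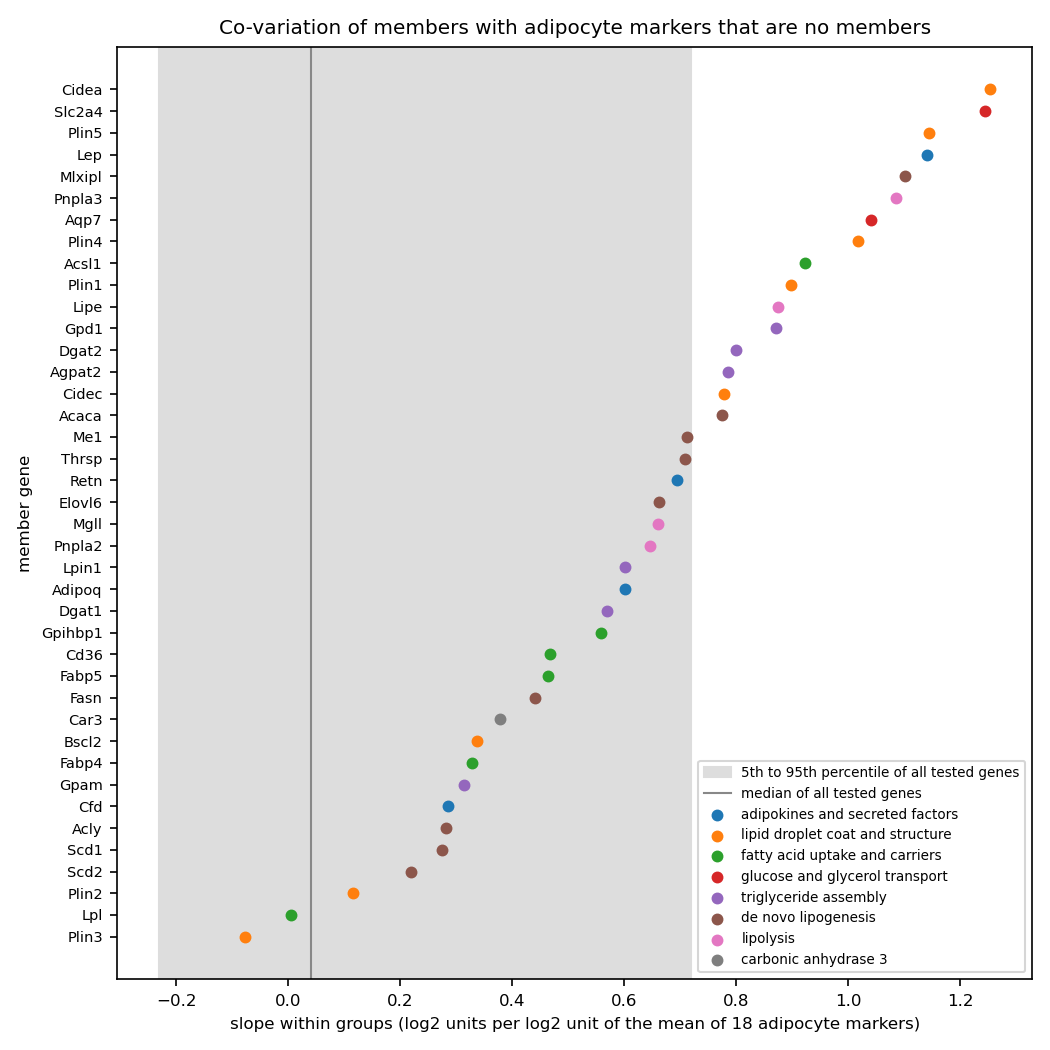
Slope of each member (points, coloured by role) on the mean log2 CPM of 18 adipocyte markers that are not members, within groups over 20 libraries; the grey band holds the 5th to 95th percentile of all tested genes and the line their median of 0.0409. Slopes run from −0.08 for Plin3 to 1.25 for Cidea.

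With the mean of those 18 markers as a covariate, added after the data were seen, 9 members passed between FIPs and APCs of controls, against 36 without it, while 30.4% of all genes did. Plin2 (−0.39, adjusted p = 0.000296), Lpl (−0.34, adjusted p = 0.000218), Fabp4 (−0.44, adjusted p = 0.000134), Gpam (−0.36, adjusted p = 0.00852) and Fabp5 (−0.25, adjusted p = 0.0314) were lower in FIPs. The other 4 were higher, namely Mgll (0.37, adjusted p = 9.97e-06), Scd2 (0.36, adjusted p = 0.0487), Plin4 (0.20, adjusted p = 0.0178) and Pnpla3 (0.18, adjusted p = 0.0297). Under the transgenic label 9 passed as well, against 42.5% of all genes. Plin2 (−0.56, adjusted p = 1.37e-07), Lpl (−0.37, adjusted p = 3.55e-06) and Fabp4 (−0.54, adjusted p = 4.2e-07) were again lower, and Scd2 (0.91, adjusted p = 9.13e-07), Mgll (0.50, adjusted p = 3.14e-09), Acaca, Acly, Acsl1 and Me1 were higher.

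Between genotypes with that covariate, 0 members passed in APCs, with 0.0574% of all genes and 3 members at an unadjusted p under 0.05. In FIPs 2 were lower in libraries labelled transgenic, Lep (−0.27, adjusted p = 0.0345) and Adipoq (−0.14, adjusted p = 0.0404). Of all tested genes, 0.195% passed as lower there and 0.522% as higher. The covariate is itself a measure of adipocyte transcripts, a class to which the members that define adipocytes also belong. The cells that the RNA of the covariate genes or of the members came from were not tested.

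Other genes of lipid metabolism were taken from 6 lists that hold no member. Of 13 glycerolipid assembly enzymes, 1 was higher and 7 were lower in control FIPs, among them Gk, glycerol kinase (−0.80, adjusted p = 0.000153), Lpin3 (−0.59, adjusted p = 1.19e-06) and Gpd2, the mitochondrial glycerol phosphate dehydrogenase (−0.63, adjusted p = 0.000865). The acyltransferase Agpat4 was the one that was higher (0.73, adjusted p = 1.41e-07). In APCs labelled transgenic 1 was higher and 4 were lower. Gk (−0.51, adjusted p = 0.0389) and the acyltransferases Gpat3 (−0.70, adjusted p = 0.0425) and Mogat1 (−1.08, adjusted p = 0.0442) were among the lower, and Lpin3 was higher (0.31, adjusted p = 0.0207).

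Of 14 tested droplet and lipolysis factors, 3 were higher and 8 were lower in control FIPs. G0s2, the inhibitor of ATGL, was lower (−0.84, adjusted p = 2e-09), as were the droplet factor Fitm2 (−0.90, adjusted p = 2.28e-06) and the caveolar protein Cav1 (−0.36, adjusted p = 5.88e-05), while Faf2 was higher (0.28, adjusted p = 1.72e-06). In APCs labelled transgenic 0 were higher and 3 were lower, namely Fitm2 (−0.44, adjusted p = 0.0315), the lipid hydrolase Ces1f (−0.95, adjusted p = 0.0338) and Cav2 (−0.49, adjusted p = 0.0465). The 14 tested genes of fatty acid uptake and activation split, and 7 were higher and 5 were lower in control FIPs. Slc27a3 (0.95, adjusted p = 7.51e-08), Acsl4 (0.28, adjusted p = 0.000403) and Vldlr, a receptor for triglyceride-rich lipoproteins (0.65, adjusted p = 0.000472), were higher there, and the fatty acid transporter Slc27a1 was lower (−0.84, adjusted p = 0.000321). In APCs labelled transgenic 0 were higher and 1 was lower, which was Slc27a1 (−0.65, adjusted p = 0.0293).

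Of 19 genes of fatty acid synthesis and desaturation, 1 was higher and 12 were lower in control FIPs, with Acacb, the mitochondrial carboxylase (−1.12, adjusted p = 0.000374), pyruvate carboxylase Pcx (−0.75, adjusted p = 0.000695), Acss2, which activates acetate (−0.64, adjusted p = 0.00163), and G6pdx, a source of NADPH (−0.40, adjusted p = 1.91e-05), among the lower. In APCs labelled transgenic 0 were higher and 8 were lower, among them Mcat of mitochondrial fatty acid synthesis (−0.51, adjusted p = 0.0218), the elongation enzyme Hacd2 (−0.46, adjusted p = 0.0247), Acss2 (−0.56, adjusted p = 0.0339) and Pgd of the pentose phosphate pathway (−0.29, adjusted p = 0.034).

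Among 13 regulators, 1 was higher and 7 were lower in control FIPs. Pparg (−1.13, adjusted p = 3.45e-08), Nr1h3, the liver X receptor α (−0.81, adjusted p = 1.17e-11), Cebpa (−0.70, adjusted p = 1.29e-05) and Mid1ip1, a partner of Thrsp (−0.60, adjusted p = 9.96e-06), were lower. Pparg (−0.81, adjusted p = 3.07e-06) and Nr1h3 (−0.88, adjusted p = 2.87e-12) were also lower in FIPs under the transgenic label. In APCs labelled transgenic 0 were higher and 1 was lower, Srebf1, the sterol-responsive activator of lipogenesis (−0.24, adjusted p = 0.0315). Of 16 genes of mitochondrial fatty acid oxidation, 1 was higher and 13 were lower in control FIPs and 0 were higher and 6 were lower in APCs labelled transgenic, with the carnitine palmitoyltransferase Cpt2 (−0.59, adjusted p = 0.0222) among the latter. Between genotypes in FIPs, 0 genes of each list passed in limma, with 0 to 2 per list at an unadjusted p under 0.05.

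Markers of other cells moved beside these results. Erythroid markers summed to between 805 and 1544 CPM in control APCs, between 454 and 1043 CPM in APCs labelled transgenic, between 451 and 522 CPM in control FIPs and between 308 and 559 CPM in FIPs labelled transgenic. Of the 6 tested, 6 were lower in control FIPs and 6 in APCs labelled transgenic. Macrophage markers summed to between 595 and 840 CPM in control APCs, between 438 and 598 CPM in APCs labelled transgenic, between 492 and 770 CPM in control FIPs and between 434 and 587 CPM in FIPs labelled transgenic, and of 20, 0 were higher and 12 were lower in APCs labelled transgenic. Endothelial markers summed to between 1211 and 1530 CPM in control APCs, between 1087 and 1399 CPM in APCs labelled transgenic, between 997 and 1251 CPM in control FIPs and between 1111 and 1418 CPM in FIPs labelled transgenic. Of those 20, 1 was higher and 19 were lower in control FIPs and 1 was higher and 1 was lower in APCs labelled transgenic. The one higher in control FIPs was the abundant Tek, at 8.06 log2 CPM against 7.23 in control APCs, while the list's median difference was −0.62.

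Brown and beige adipocyte markers, 8 genes with Ucp1 among them, summed to between 60.1 and 163 CPM in control APCs, between 35.1 and 94.1 CPM in APCs labelled transgenic, between 37.7 and 53.6 CPM in control FIPs and between 24.4 and 57.7 CPM in FIPs labelled transgenic, and 0 were higher and 7 were lower in control FIPs. The 11 mesothelial markers summed to between 272 and 311 CPM in control APCs, between 201 and 283 CPM in APCs labelled transgenic, between 201 and 286 CPM in control FIPs and between 237 and 270 CPM in FIPs labelled transgenic, and 0 were higher and 10 were lower in control FIPs. Wt1, the most abundant of the 11, weighs on these sums, at 7.16 log2 CPM in control APCs and 7.48 in control FIPs. The list's median difference there was −1.01 log2 units. The 12 mural markers summed to between 846 and 1179 CPM in control APCs, between 796 and 930 CPM in APCs labelled transgenic, between 462 and 501 CPM in control FIPs and between 478 and 608 CPM in FIPs labelled transgenic, and 0 were higher and 12 were lower in control FIPs. The gate transcripts were also lower in APCs labelled transgenic, Ly6c1 (−0.53, limma adjusted p = 0.00161), Ly6c2 (−0.53, 0.00231) and Cd9 (−0.65, 0.00163). The part of these cells and of the gate in the member results was not tested.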

How the data were processed

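Poly(A) RNA-seq libraries, 20 in 4 groups of 5, were grouped by the sample labels. The authors deposited log2 CPM values per gene, with 2 decimals and values at or under 1 CPM listed as 0, as the deposited table shows. The submitters' processing notes name Trim Galore 0.4.1, HISAT2 2.0.1, featureCounts 1.4.6, DESeq2 1.6.3 and the mouse build GRCm38 (mm10), while the settings of counting and the annotation were not given in the sources used here. Low values matched whole reads for 71.8% to 78.8% of genes per library, at a tolerance of 0.0051 log2 units, so no count model was used, and the depth read from them limits precision at low levels.

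Genes above 0 in at least 5 libraries (17435 of 54304, with 34963 at 0 everywhere) were tested with limma 3.58.1 in R 4.3.3, with a variance trend, 1 mean per group, 16 residual degrees of freedom and Benjamini-Hochberg adjustment over all tested genes. The tests were checked on simulated data, drawn independently for each gene and library with the same spread in every group. Such data lack the library shifts shared by many genes here, so that check does not cover them. Alternatives changed the scale of the logarithm, the filter, the centring (library medians, quantiles, trimmed mean of M-values), the variance model, the libraries fitted and a block on replicate number, and a covariate and joint omissions of libraries were added after the data were seen. The members and lists were chosen with earlier results of these data known. Values of every library are given for members that passed in a genotype comparison, for those that define adipocytes and for the member of each role that differed most between FIPs and APCs in controls. Of each other list, up to 4 genes with the smallest adjusted p are named. Lengths and positions came from GENCODE M21 (54276 of 54304 identifiers matched), and promoter windows from RefSeq.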

Additional observations from a re-analysis of the deposited data

Results flagged for a closer look

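In 19 of 160 sets of 5 libraries (40 members in 4 groups), 1 library stood apart, its gap to the nearest library taking up more of the group's range than Dixon's 95% critical value of 0.71. Chance alone marks about 1 in 20 such sets, and among all tested genes the share was 7.08% in control APCs, 9.1% in APCs labelled transgenic, 9.21% in control FIPs and 8.17% in FIPs labelled transgenic.

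Replicate 1 of the APCs labelled transgenic was the highest library in 13 of these sets. The ratio of gap to range was 0.739 for Adipoq, 0.806 for Retn, 0.747 for Plin1, 0.764 for Cd36, 0.754 for Slc2a4 and 0.775 for Agpat2. It was 0.725 for Dgat2, 0.865 for Acly, 0.753 for Acaca, 0.804 for Fasn, 0.738 for Pnpla2, 0.784 for Lipe and 0.791 for Car3. The 18 adipocyte markers that are not members summed to 1286 CPM in that library, against 688 to 831 CPM in the other 4. Erythroid markers summed to 1043 CPM there, against 454 to 602 CPM in the other 4. The part of either set in these values was not tested.

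The other 6 sets involved different libraries. Replicate 5 of the control APCs was the highest for Scd2, with a ratio of 0.821. Among control FIPs, replicate 3 was the highest for Cfd (0.8) and Lpl (0.765), replicate 5 was the highest for Thrsp (0.789), replicate 1 was the lowest for Plin1 (0.731), and replicate 4 was the lowest for Acly (0.833).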

How the results depend on the processing

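In controls, 35 to 38 members differed between FIPs and APCs without 1 library, and of all genes 7599 to 8246. Under the transgenic label the ranges were 5 to 25 members and 6682 to 7125 genes, between genotypes in APCs 1 to 35 members and 181 to 2849 genes, in FIPs 0 members and 9 to 125 genes, and for the interaction 0 to 1 member and 0 to 331 genes. With all libraries these 5 comparisons had 36, 10, 25, 0 and 0 members and 8288, 7275, 1396, 65 and 0 genes, in that order.

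Between genotypes in APCs, 812 genes and 6 members passed with no filter on low values, 2199 genes after median centring, 2253 with array weights, and 0 genes and 0 members when only the groups compared were fitted. Centring gave 27 members under the transgenic label, with 41.7% of all genes. Fitting only the groups compared left 6 members there (with 39.8% of all genes) and 36 genes between genotypes in FIPs, and the interaction was not fitted this way. Array weights gave 271 genes in FIPs, and 176 genes and 1 member for the interaction. The interaction had 3 genes with 1 CPM added and 0 taken as 0 CPM, and 1 with quantile normalization. Without both low FIP libraries the interaction had 12 genes and the transgenic label 5 members (with 35.9% of all genes). Without these and the high APC library the interaction had 899 genes and 31 members, and the transgenic label 6 members (with 36.4% of all genes).

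A replicate block gave 30 members under the transgenic label (with 45% of all genes) and 9 members between genotypes in APCs (with 6.06% of all genes). It gave 101 genes in FIPs and 25 for the interaction. The labels do not tie the numbers to mice. Deviations of same-numbered FIP and APC libraries correlated at 0.0364 to 0.269 in controls (2 of 5 over 0.1, 3 of 5 highest with their own number) and at 0.0592 to 0.333 under the transgenic label (3 of 5 and 4 of 5), all above 0 but not all over 0.1, which is a hint of pairing from the data and not from the design. They correlated between genotypes at −0.317 to 0.148 in APCs and −0.00575 to 0.113 in FIPs, with 1 of 5 highest with its own number in each.

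The adipocyte marker covariate left 5301 genes and 9 members in controls, 125 genes and 2 members between genotypes in FIPs, 10 genes and 0 members in APCs, and 2 genes for the interaction. In FIPs of controls it moved 18 members from below to above 0: Adipoq 0.089, Lep 0.18, Retn 0.073, Cfd 0.056, Plin1 0.11, Plin4 0.20, Cidec 0.10, Cidea 0.039, Acsl1 0.10, Slc2a4 0.089, Dgat2 0.080, Acly 0.087, Acaca 0.030, Thrsp 0.062, Pnpla3 0.18, Lipe 0.077, Mgll 0.37 and Car3 0.029 log2 units, of which Plin4, Pnpla3 and Mgll passed. Under the transgenic label it moved 21 members from below to above 0 and 1, Plin3, the other way, and of the 21 Acsl1 at 0.13, Acaca at 0.21 and Me1 at 0.11 passed. The cause of these changes was not tested. Pools of 2 mice and values cut at 1 CPM limit what can be read at low levels.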
